A study of Mus musculus with 3 samples.

Results

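The cells described here are CD8 T cells of mouse mammary tumors that carried transcripts of Pdcd1, the gene of the inhibitory receptor PD-1, together with Lag3, Havcr2 (TIM-3) or both. They were chosen by transcripts in single-cell RNA sequencing. A T cell had at least 2 of Cd3d, Cd3e, Cd3g and Trac, fewer than 2 of the proliferation genes Mki67, Top2a, Birc5 and Cdk1, and no Trdc. A T cell counted as CD8 with Cd8a or Cd8b1 and without Cd4, and it entered the gate with at least 1 count of Pdcd1 and at least 1 of Lag3 or Havcr2. The gate held 231 cells, of 651 CD8 T cells, 1723 T cells and 12472 cells of all kinds that were kept, each with 1500 or more unique molecular identifiers (UMIs, 1 per captured transcript), 300 or more genes seen and no more than 20% of counts from mitochondrial genes. They are called Pdcd1+ CD8 T cells below. The 15 genes of the gate chose these cells, so their values are a description and they were left out of all tests.

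The cells came from 4T1-luc tumors, a luciferase-carrying mammary adenocarcinoma line of BALB/c mice, grown from 200000 cells in the 4th mammary fat pad of female BALB/c mice aged 6 to 8 weeks. Mice of the vehicle and p38i groups bore p38 wild-type tumors and received DPBS or the p38 inhibitor LY2228820 at 30 mg/kg by daily gavage for 10 days from day 4. Mice of the p38KO group bore tumors of p38a-KO-H9, 1 clone whose Mapk14 gene, which encodes p38α, was inactivated by CRISPR-Cas9, and no gavage is given for them. On day 14, tumors of 3 mice per group were pooled, and live CD45+ leukocytes were sorted and made into 1 library per group. The deletion sat in tumor cells, which the CD45 sort removes, so Mapk14 in T cells does not check it. Mapk14 was at 45.6, 51.0 and 25.6 CPM, its count per 1e6 counts, in vehicle, p38i and p38KO Pdcd1+ CD8 T cells.

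Exhaustion is a differentiated state of CD8 T cells that meet antigen for a long time, as in tumors and chronic infection. Such cells keep several inhibitory receptors, depend on the transcription factor Tox, and lose the genes of naive and memory cells, among them Tcf7. PD-1, LAG-3 and TIM-3 are also induced by recent activation, and a gate on their transcripts takes in both kinds of cell.

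The gate held 109 cells of the vehicle library, 100 of the p38i library and 22 of the p38KO library. Their median depth was 6827, 6016.5 and 4774 UMIs, and their summed depth 833491, 647688 and 156132 UMIs. Values of the p38KO library therefore rest on the fewest cells and counts. Intervals given for a library cover counting error only, and each condition is 1 library, so the difference between conditions and the difference between libraries cannot be told apart.

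The gate rested on CD8 transcripts and on Lag3 more than on Havcr2. Cd8a and Cd8b1 were both seen in 103, 95 and 21 of the cells, in the order vehicle, p38i and p38KO that is used from here on. Lag3 without Havcr2 carried most cells into the gate (65, 58 and 17 cells), Havcr2 without Lag3 carried few (2, 8 and 2 cells), and 42, 34 and 3 cells had both. Pdcd1 stood at 498, 459 and 391 CPM, Lag3 at 444, 445 and 218 CPM, and Havcr2 at 126, 117 and 96.1 CPM. Just inside the limits were 4, 9 and 6 cells with 1 count of Pdcd1 and 1 of Lag3 or Havcr2. Just outside were 28, 21 and 29 CD8 T cells with Pdcd1 and neither of the other transcripts, and 40, 33 and 12 with Lag3 or Havcr2 and no Pdcd1. None of the cells had 2 or more B cell markers, whose sum was 9.60, 7.72 and 25.6 CPM, but 5, 6 and 2 cells had at least 2 granulocyte markers and 5, 1 and 4 at least 2 macrophage markers, 9, 7 and 5 cells in all. Between 5 and 9 barcodes were shared by any pair of libraries, and 2, 1 and 1 of the Pdcd1+ CD8 T cells had such a barcode.

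The Pdcd1+ CD8 T cells made up a like share of CD8 T cells in the vehicle and p38i libraries and a smaller share in the p38KO library. The share was 43.1% (exact Clopper-Pearson 95% interval 36.9 to 49.4) in the vehicle library, with 109 of 253 cells. It was 42.4% (36.0 to 49.0) in the p38i library, with 100 of 236 cells. It was 13.6% (8.71 to 19.8) in the p38KO library, with 22 of 162 cells. The p38KO interval lay below both others, which overlapped. CD8 T cells with none of Pdcd1, Lag3 and Havcr2 made up 30.0%, 34.7% and 61.1%.

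A deeper cell shows a transcript more easily, so every cell was also thinned to 1500 UMIs. The gate was drawn again on the thinned counts, which also lose transcripts that keep a cell out, such as Cd4. Cells could thus enter the groups as well as leave them, and CD8 T cells then numbered 236, 212 and 145. The share was then 14.4% (10.2 to 19.5) in the vehicle library, 16.04% (11.4 to 21.7) in the p38i library and 2.76% (0.757 to 6.91) in the p38KO library, with the p38KO library again below both others. Granulocytes, which should lack the gate, gave the background of free RNA. None of 2053, 2474 and 1820 granulocytes had the checkpoint transcripts of the gate, which allows shares of up to 0.146%, 0.121% and 0.165% at the floor of 3 counts (exact Clopper-Pearson upper limits 0.180%, 0.149% and 0.202%), at median depths of 2558, 2322 and 2263.5 UMIs. CD4 T cells that passed the same checkpoint gate went the other way, with 8, 13 and 44 cells of 149, 180 and 211 CD4 T cells.

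**Figure D1:**
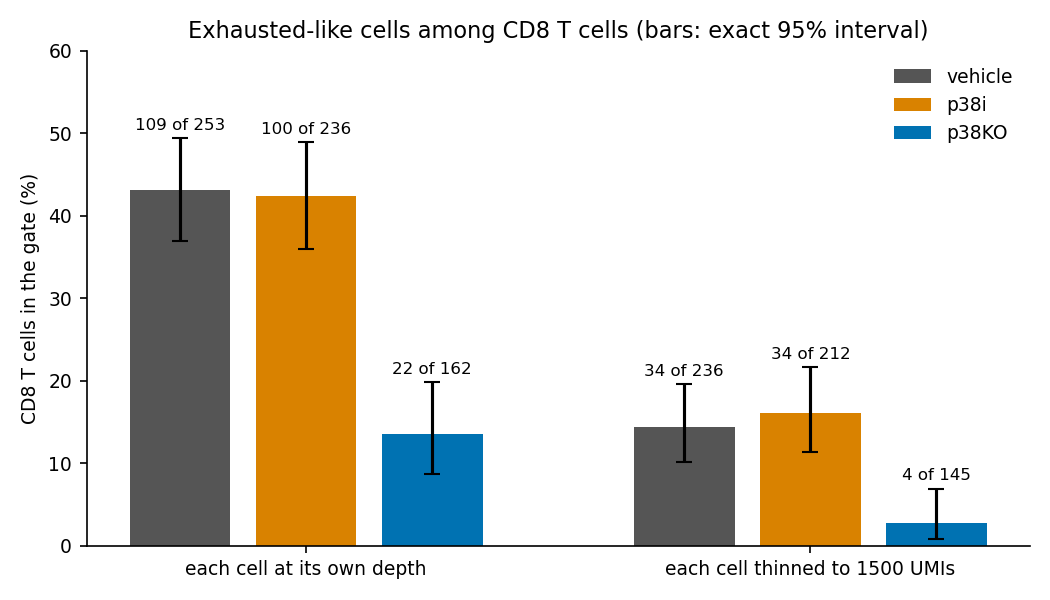
Share of CD8 T cells inside the Pdcd1 and Lag3 or Havcr2 gate (%, vertical axis) in each library, with each cell at its own depth on the left and thinned to 1500 UMIs on the right; error bars are exact Clopper-Pearson 95% intervals and the numbers above them are cells. The vehicle and p38i bars stand at 43.1% and 42.4% and the p38KO bar at 13.6%, and thinning lowers all 3 to 14.4%, 16.04% and 2.76%.

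To find what the gated cells shared beyond the gate, they were compared with the 257 CD8 T cells that had none of Pdcd1, Lag3 and Havcr2 (76, 82 and 99 cells), called checkpoint-negative here. Counts were summed per library and cell state and tested with edgeR's quasi-likelihood test with the library as a block, so that the 3 libraries were the replicates. Of 5832 genes tested, 188 were higher (3.22%) and 215 lower (3.69%) in the Pdcd1+ CD8 T cells at an adjusted p under 0.05, and the median log2 fold change of all genes was -0.01. The p-values measure the spread between these 3 libraries of pooled mice under 3 conditions. The gated cells were deeper than the checkpoint-negative cells in the vehicle and p38i libraries (medians 6827 against 5259.5 and 6016.5 against 4441.5 UMIs) and shallower in the p38KO library (4774 against 5521).

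Some inhibitory receptors outside the gate were higher in the Pdcd1+ CD8 T cells. Of 12 listed, 9 were tested, 5 were higher and none was lower, with a median log2 fold change of 0.90. Cd200, a surface glycoprotein whose receptor restrains myeloid cells, stood at 145, 147 and 122 CPM in the gated cells and at 8.92, 15.7 and 18.5 CPM in checkpoint-negative cells. The states did not overlap, and the log2 fold change was 3.18 ± 0.28 (SE, edgeR adjusted p = 1.26e-05). Ctla4, the CD28 competitor that removes its ligands from presenting cells, was at 154, 47.9 and 38.4 CPM against 46.8, 18.3 and 25.2 CPM. Each library's gated cells exceeded its own checkpoint-negative cells, although the gated p38KO cells lay below the checkpoint-negative vehicle cells (log2 fold change 1.36 ± 0.28 SE, edgeR adjusted p = 0.00804). Cd244a (2B4), Cd160 and Entpd1 (CD39, which breaks down extracellular ATP) were the other 3, with log2 fold changes of 1.74, 0.90 and 1.04. Tigit, a receptor often found with PD-1, was nearly absent, at 2.40, 6.18 and 0 CPM.

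Among transcription factors of the exhausted and effector state, 6 of 15 tested were higher and none lower (18 listed, median log2 fold change 0.76). Tox (chromosome 4, 6686353 to 6991557, minus strand, GRCm38), the factor that installs the exhausted program, was at 137, 147 and 76.9 CPM in gated cells and at 22.3, 28.7 and 23.5 CPM in checkpoint-negative cells. All 3 gated values lay above all 3 others, with a log2 fold change of 2.21 ± 0.25 (SE, edgeR adjusted p = 0.000105). Irf4, which links receptor signal strength to effector genes, was at 51.6, 27.8 and 25.6 CPM against 0, 0 and 10.1 CPM. Rbpj, Zeb2, Bhlhe40 and Id2 were also higher, by 1.43, 1.62, 0.97 and 0.76 on the log2 scale. Tbx21 and Eomes, the T-box factors of effector and memory cells, did not pass, with log2 fold changes of 0.36 and -0.70 and edgeR adjusted p-values of 0.561 and 0.574. Batf did not pass either (log2 fold change 0.27).

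Most tested genes of naive, memory and progenitor cells were lower. Of 16 listed, 12 were tested, 8 were lower and 1 was higher, with a median log2 fold change of -1.66. Tcf7, which encodes the factor TCF-1 that maintains progenitor and memory T cells, was at 14.4, 7.72 and 19.2 CPM in gated cells and at 152, 136 and 78.9 CPM in checkpoint-negative cells. The states were far apart in each library (log2 fold change -3.50 ± 0.31 SE, edgeR adjusted p = 1.26e-05). Its partner Lef1 changed by -3.78. S1pr1, the receptor by which T cells leave tissue, changed by -3.07, and Klf2, the factor that drives it, by -2.90. Slamf6, a marker of progenitor exhausted cells, was at 37.2, 24.7 and 32.0 CPM against 136, 175 and 75.5 CPM. Il7r and Satb1 fell less, by 0.60 and 0.64 on the log2 scale. The gene that was higher was Xcl1, the chemokine that attracts cross-presenting dendritic cells, at 396, 366 and 224 CPM against 123, 198 and 92.3 CPM.

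**Figure D2:**
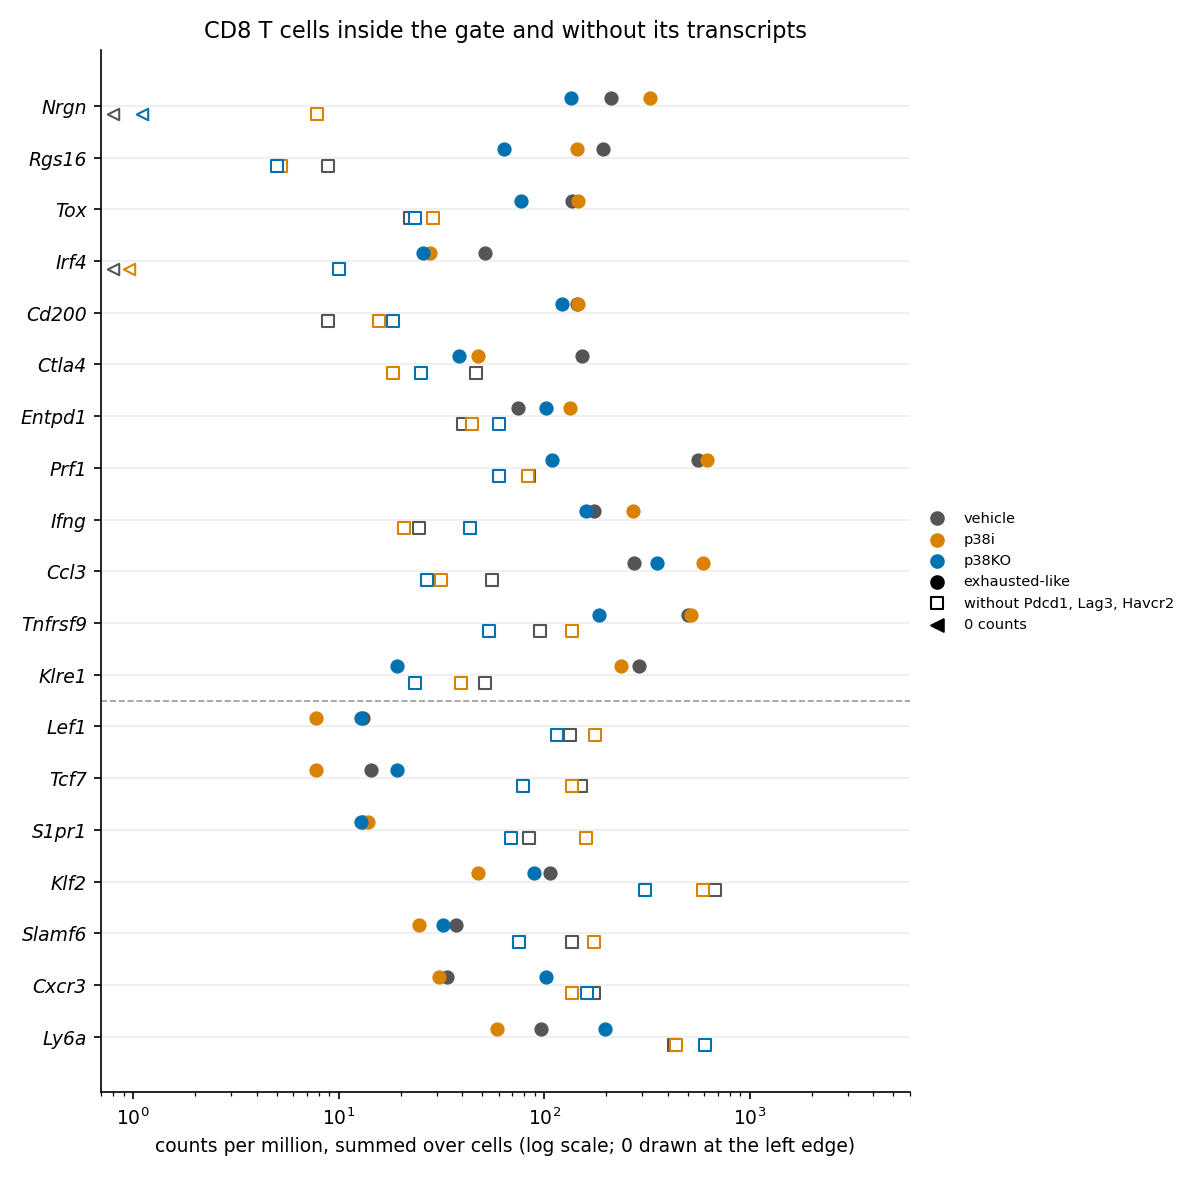
Levels of 19 genes (CPM summed over cells, log axis) in Pdcd1+ CD8 T cells (filled circles) and in CD8 T cells with none of Pdcd1, Lag3 and Havcr2 (open squares) of each library; values of 0 are triangles at the left edge. Genes above the dashed line were higher in the gated cells and genes below it lower by edgeR's test; Klre1 in the p38KO library, at 19.2 against 23.5 CPM, is a point where the order within a library is turned.

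Of 13 tested cytotoxic genes, 6 were higher, 7 did not pass and none was lower (17 listed, median log2 fold change 0.65). Gzmb, the main granzyme of killer cells, was at 1127, 596 and 698 CPM in gated cells and at 812, 402 and 309 CPM in checkpoint-negative cells. Each library had the higher value in its gated cells (log2 fold change 0.65 ± 0.13 SE, edgeR adjusted p = 0.00688). The direction turned where each cell was thinned to 1500 UMIs and both groups were chosen again, with 34, 34 and 4 gated cells. Prf1, which encodes the pore-forming perforin, was at 561, 619 and 109 CPM against 84.7, 83.6 and 60.4 CPM. The p38KO library stood apart here, with the smallest gap (log2 fold change 2.31 ± 0.38 SE, edgeR adjusted p = 0.0262), and the call was lost without the block and without the vehicle or the p38i library. Nkg7 and Serpinb6b, a protease inhibitor, were higher by 0.65 and 1.12. Gzmc and Gzmf were called higher as well, but most of their counts came from few cells, as described below for p38i. Without the block, 2 of the 13 were called higher, Nkg7 and Serpinb9, so the calls of Gzmb, Prf1, Serpinb6b, Gzmc and Gzmf rest on it. Gzma did not pass (log2 fold change 0.05), and neither did Gzmk (-0.71).

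Of 11 tested cytokines and chemokines, 4 were higher and none lower (16 listed, median log2 fold change 1.98). Ifng, the main effector cytokine, was at 175, 272 and 160 CPM in gated cells and at 24.5, 20.9 and 43.6 CPM in checkpoint-negative cells. All gated values lay above all others (log2 fold change 2.67 ± 0.27 SE, edgeR adjusted p = 4.1e-05). Ccl3, a chemokine that attracts myeloid cells and lymphocytes, was at 274, 591 and 352 CPM against 55.7, 31.3 and 26.9 CPM. Csf1, the macrophage growth factor, was at 203, 205 and 57.6 CPM against 44.6, 28.7 and 38.6 CPM. Ccl1 was the fourth, with most counts in few cells. Ccl5, a T cell attractant, was at 2612 CPM in the gated vehicle cells and at 5411 CPM in the checkpoint-negative ones and did not pass the test (log2 fold change -0.60, edgeR adjusted p = 0.332).

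Among costimulatory genes, Tnfrsf9 (4-1BB), Tnfrsf4 (OX40) and Icos were higher and none of 12 tested was lower. Tnfrsf9, which marks T cells with recent receptor signal, was at 502, 520 and 186 CPM in gated cells and at 95.9, 136 and 53.7 CPM in checkpoint-negative cells, a log2 fold change of 2.01 ± 0.17 (SE, edgeR adjusted p = 8.19e-06). Of the 16 tested genes of trafficking and residency, 3 were higher and 5 lower. Rgs16, which shortens chemokine receptor signals, was at 193, 145 and 64.0 CPM against 8.92, 5.22 and 5.03 CPM. Cx3cr1 and Cxcr6, chemokine receptors of effector and tissue T cells, were higher by 3.53 and 0.86. Cxcr3 and the integrin genes Itgb7, Itga4 and Itgb1 changed by -1.91, -2.45, -0.98 and -0.62, and Cd69 by -0.86. Itgae, the integrin CD103 of resident cells, did not pass over the 3 libraries (log2 fold change 0.65, edgeR adjusted p = 0.82) and is taken up below.

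Glycolysis and hypoxia genes were the list with the most genes higher. Of 19 tested, 9 were higher and none lower, with a median log2 fold change of 0.57. Gapdh was at 2342, 2669.5 and 1748.5 CPM in gated cells and at 1226, 1379 and 1149.6 CPM in checkpoint-negative cells (log2 fold change 0.78 ± 0.08 SE, edgeR adjusted p = 7.82e-05). The other 8 were Tpi1, Ldha, Aldoa, Pkm, Mif, Hif1a, Pgam1 and Pgk1. Of 21 tested interferon-response genes, 9 were lower and none was higher, with a median log2 fold change of -0.80. Ly6a (Sca-1) was at 96.0, 58.7 and 199 CPM against 428, 436 and 608 CPM, and Iigp1, an interferon-induced GTPase, at 9.60, 12.4 and 0 CPM against 84.7, 73.1 and 33.6 CPM.

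Killer cell lectin-like receptors, which natural killer cells share with effector CD8 T cells, were higher in 4 of 5 tested (Klrc1, Klrc2, Klrd1 and Klre1, median log2 fold change 0.90). Of 18 genes of T cell receptor signalling, Zap70, Sh2d2a and Cblb were higher and Lat lower. Il18rap was the only one of 14 tested cytokine receptors to pass. Of 15 tested p38 pathway genes, the phosphatase genes Dusp2 and Dusp4 and the kinase gene Map2k3, which activates p38, were higher and Zfp36l2, an mRNA decay factor, was lower. Mapk14 itself had a log2 fold change of 0.11 (edgeR adjusted p = 0.907). Of the survival and death genes, Bcl2l11 and Bcl2a1b were among those higher and Bcl2 was lower, at 685, 514 and 314 CPM against 941, 697 and 611 CPM. Of 13 immediate-early genes Atf3 and Jund were higher, of 13 cell-cycle genes outside the gate Cenpa was higher, and of 9 heat-shock chaperones Hspe1 was lower. Markers of granulocytes, macrophages, dendritic cells, natural killer cells and γδ T cells gave no call among the 7, 3, 3, 2 and 2 genes tested. Ighm of the B cell list was lower.

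The 10 largest changes in each direction held list members and genes outside the lists. Nrgn, a calmodulin-binding protein best known from neurons, was at 212, 327 and 135 CPM in gated cells and at 0, 7.84 and 0 CPM in checkpoint-negative cells (log2 fold change 6.43 ± 0.41 SE, edgeR adjusted p = 8.68e-07). It was seen in 53, 46 and 5 of the gated cells, so it was not carried by a single cell. Nrn1, a membrane-anchored neuritin, was at 242, 278 and 51.2 CPM against 8.92, 10.4 and 5.03 CPM. Penk, the precursor of enkephalins, and Igfbp7 had no count in checkpoint-negative cells and were at least 15.1-fold and 24.4-fold higher, against a floor of 3 counts over the group. With 1 library left out these limits were 9.17 to 10.96 and 12.99 to 19.3. The rest of the 10 were Ier5l, Neb, Rgs16, Ccl1, Gzmc and Gzmf. The 10 that fell most were Lef1, Klf3, Tcf7, Sh3bp5, Rflnb, S1pr1, Iigp1, Cd7, Ighm and Klf2. Without the single cell with most counts of each gene, 4 of the 10 higher and all 10 lower genes were still called.

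These counts depended on the libraries. Without the vehicle library 103 genes were higher and 80 lower, without the p38i library 88 and 66, and without the p38KO library 225 and 223. DESeq2 called 67 and 59, of which 64 and 57 were among those of the main test. Each cell was also thinned to 1500 UMIs and the gate drawn again on the thinned counts. This gave 34, 34 and 4 gated cells with 51000, 51000 and 6000 UMIs. It gave 120, 109 and 106 checkpoint-negative cells, against 76, 82 and 99 at full depth, so both groups changed. Then 1561 genes could be tested and 14 and 6 were called. Of these, 9 and 4 were among the 188 and 215 of the main test. Still called were 0 of its 10 largest higher and 1 of its 10 largest lower genes. Id2, Gzmb, Zap70, Il18rap, Ldha, Mif and Bcl2l11 then turned direction, without passing the test.

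Cells of the CD4 lineage that passed the same checkpoint gate (8, 13 and 44 cells) showed which features went with the CD8 lineage. Of 3520 genes tested, 113 were higher (3.21%) and 88 lower (2.5%) in the Pdcd1+ CD8 T cells, with a median log2 fold change of 0.01. Without the block 35 and 64 were called, and without the p38KO library, which held most of the CD4 cells, 46 and 47.

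Killing genes separated the lineages. Prf1 had 0, 0 and 2 counts in the CD4 cells (log2 fold change 5.93 ± 0.53 SE, edgeR adjusted p = 5.79e-06). Gzma, a second granzyme, had no count in any CD4 cell of the gate and was at 125, 72.6 and 1121 CPM in the CD8 cells, at least 31.4-fold higher over the 3 libraries together. In the p38KO library its 175 counts lay in 3 cells, 71.4% of them in 1, and without this library the limit was 4.98-fold. Gzmb was present in both, at 1127, 596 and 698 CPM against 623, 224 and 350 CPM, and was higher by 1.16 on the log2 scale. In all 5 of 10 tested cytotoxic genes were higher and Srgn, the granule proteoglycan serglycin, was lower. Cd160 and Crtam, surface proteins of killer cells, were also at 0 in the CD4 cells and at least 15.9-fold and 8.18-fold higher, and Cd244a was higher by 3.19. Xcl1 was at 396, 366 and 224 CPM against 18.9, 0 and 6.14 CPM. Of 4 tested killer cell lectin-like receptors, Klrd1 and Klrc2 were higher. Tcrg-C2, a constant segment of the γ chain locus, was at least 29.1-fold higher and had 0 counts in the CD4 cells. Without the p38KO library, which held 325750 of the CD4 UMIs, the limits were 4.79-fold for Cd160, 2.48-fold for Crtam and 9.44-fold for Tcrg-C2, and without the vehicle library 17.4-fold for Tcrg-C2.

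Some genes of helper cells were higher in the CD4 cells. Of 5 tested markers of CD4 helper and regulatory T cells, Il2ra, Tnfrsf4 and Cd40lg were lower in the CD8 cells and 2 did not pass. Il21, the cytokine of helper cells that sustains CD8 T cells, had no count in any Pdcd1+ CD8 T cell and was at 94.3, 107 and 132 CPM in the CD4 cells, at least 67-fold higher there, and at least 33.9-fold, 41.8-fold and 50.5-fold without the vehicle, p38i and p38KO library. Cd40lg, the ligand by which helper cells license presenting cells, was at 7.20, 1.54 and 0 CPM against 94.3, 214 and 92.1 CPM (log2 fold change -4.99 ± 0.63 SE, edgeR adjusted p = 9.83e-05). Maf was at 56.4, 30.9 and 70.5 CPM against 604, 566 and 850 CPM. Costimulatory genes were the list with the most calls, with 2 of 13 tested higher in the CD8 cells (Slamf7 and Cd27) and 8 lower (Tnfsf8, Tnfrsf4, Tnfrsf18, Tnfrsf9, Icos, Cd2, Cd82 and Cd40lg). Ctla4 was at 154, 47.9 and 38.4 CPM in the CD8 cells and at 490, 331 and 160 CPM in the CD4 cells, lower in the CD8 cells of every library (log2 fold change -2.05 ± 0.30 SE, edgeR adjusted p = 0.000392). Cd200 was lower as well, by 1.03 on the log2 scale. Penk, with no count in checkpoint-negative CD8 T cells, was higher still in CD4 cells of the gate, at 302, 299 and 1311 CPM. Tox (log2 fold change 1.02, edgeR adjusted p = 0.185), Rgs16 (0.56, edgeR adjusted p = 0.581) and Nrgn (0.43, edgeR adjusted p = 0.646) did not pass in this comparison. None of 15 tested interferon-response genes did.

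**Figure D3:**
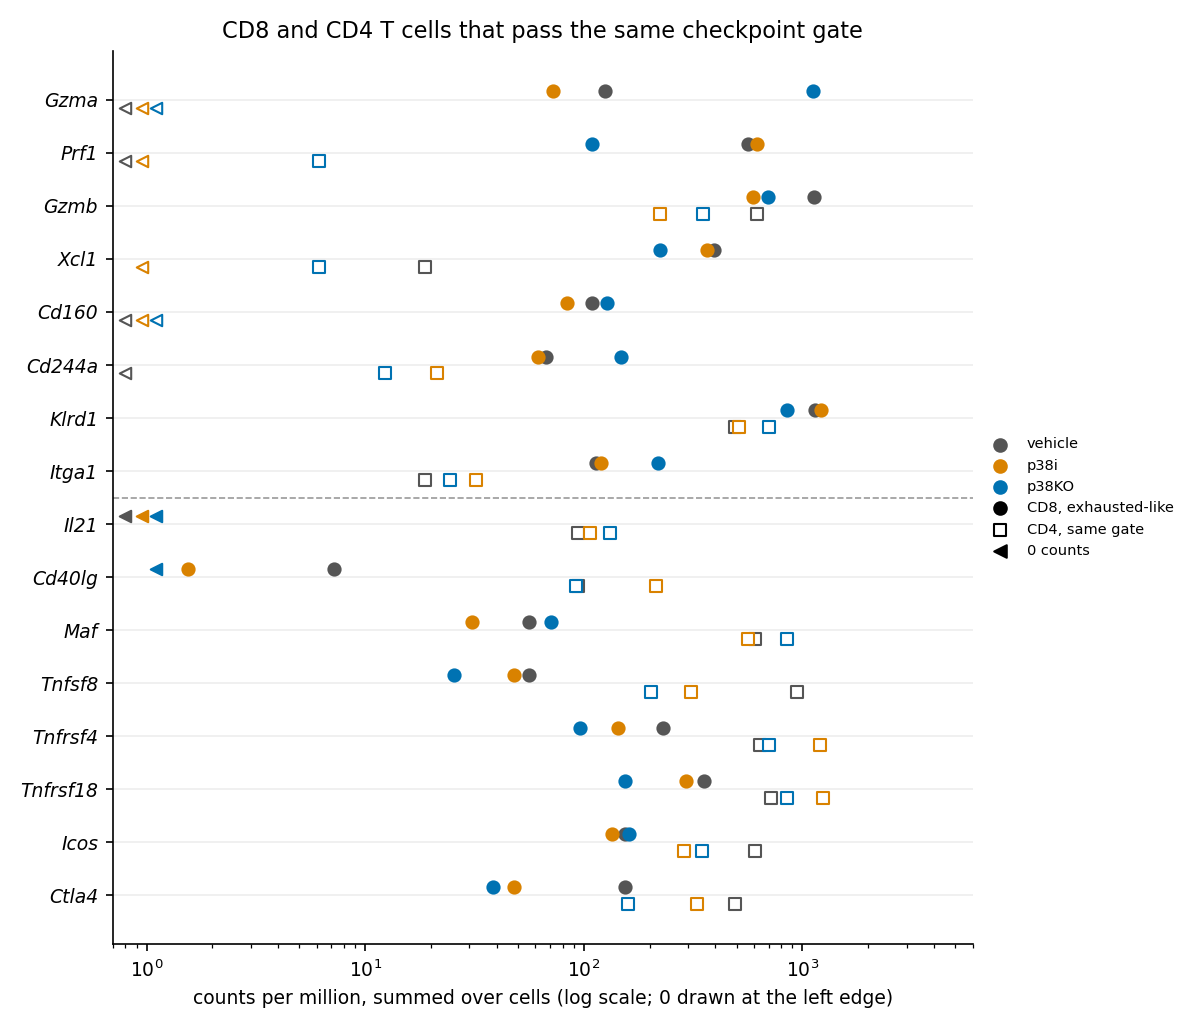
Levels of 16 genes (CPM summed over cells, log axis) in Pdcd1+ CD8 T cells (filled circles) and in CD4 T cells of the same checkpoint gate (open squares) of each library; values of 0 are triangles at the left edge. Cytotoxic and killer genes stand above the dashed line with CD8 higher. Genes higher in the CD4 cells stand below it, such as Il21 with 0 in all 3 CD8 groups and 94.3 to 132 CPM in the CD4 groups.

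The effect of the p38 inhibitor was asked within the Pdcd1+ CD8 T cells by setting the p38i library against the vehicle library. With 1 library per condition there is no test. A gene was called by size where its log2 ratio was at least 1 either way, its exact 95% interval for counting error left out 0, and both libraries together held at least 20 counts. Of 6611 genes, 142 were called higher (2.15%) and 120 lower (1.82%) in the p38i library, with a median log2 ratio of 0.06 over all genes. The call was not adjusted for the number of genes. In simulated data for this comparison, 1.56% of 6405 genes set to no change were called in error. Part of the calls may therefore be false, and which ones was not tested. Among the cells chosen after thinning to 1500 UMIs, 34 in each library, 19 of the 142 and 15 of the 120 were still called.

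Among the exhaustion genes outside the gate, Ctla4 was the one that was called. None of 16 transcription factors was called, and Tox was at 137 (95% interval 113 to 164) CPM in the vehicle library and 147 (119 to 179) in the p38i library. Of 10 inhibitory receptors, Ctla4 was called. It had 128 counts in 53 of 109 vehicle cells and 31 counts in 23 of 100 p38i cells, a log2 ratio of -1.68 (interval -2.30 to -1.11). Among the cells chosen after thinning the log2 ratio was -0.24 and the call was lost. In checkpoint-negative CD8 T cells of the same libraries Ctla4 was at 46.8 and 18.3 CPM, also lower in the p38i library. Cd200, Entpd1 and Cd244a had log2 ratios of 0.01, 0.84 and -0.12.

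Rgs1, Zfp36l2, Cd69 and Dusp2, of the trafficking and p38 pathway lists, were lower in the p38i library. Rgs1, which dampens chemokine receptors and is high in tissue T cells, had 315 counts in 77 vehicle cells and 84 counts in 44 p38i cells, a log2 ratio of -1.54 (-1.91 to -1.19). Zfp36l2, which binds and destabilizes cytokine mRNAs, was at 476 and 170 CPM, a log2 ratio of -1.49 (-1.81 to -1.18). Cd69, an early activation and retention marker, was at 142 and 44.8 CPM, a log2 ratio of -1.66 (-2.30 to -1.06). Dusp2, a phosphatase of MAP kinases, was at 359 and 165 CPM, a log2 ratio of -1.12 (-1.45 to -0.80). These genes were spread over many cells, and the checkpoint-negative CD8 T cells differed in the same direction, at 350 and 83.6 CPM for Rgs1, 711 and 282 for Zfp36l2, 239 and 62.7 for Cd69 and 216 and 94.0 for Dusp2. Of the 15 p38 pathway genes Dusp1, Dusp2 and Zfp36l2 were lower and none higher, with 55.8% of the vehicle counts of Dusp1 in 1 cell and its call lost without each library's highest cell, and Mapk14 had a log2 ratio of 0.16 (-0.56 to 0.87). Of 15 trafficking genes Rgs1, Cd69 and Itgb7 were lower and none higher.

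Interferon-response genes were lower in 5 of 20 and higher in none, with a median log2 ratio of -0.40. Ifit1 had 70 counts in 11 vehicle cells and 10 counts in 5 p38i cells, a log2 ratio of -2.44 (-3.57 to -1.48). Usp18, which shuts off interferon signalling, had 39 and 10 counts, and Irgm1 had 46 and 17. Rsad2 rested on few cells, with 87.1% of its 85 vehicle counts in 1 cell. The heat-shock genes Hspa1b and Hspa1a had 80 and 30 counts in the vehicle library and 2 each in the p38i library. Of 13 cytokines and chemokines, Ccl1 and Ccl3 were called higher and Spp1, Csf2 and Tnf lower. Ccl3 was at 274 and 591 CPM, with 47.8% of its p38i counts in 1 cell. Ccl1, Ccl3, Spp1 and Tnf turned direction among the cells chosen after thinning, and Ifng was at 175 and 272 CPM with a log2 ratio of 0.63 that was not called. Of 19 glycolysis and hypoxia genes Bnip3 and Egln3, which respond to low oxygen, were higher, Bnip3 with 45 counts in 26 vehicle cells and 100 counts in 31 p38i cells. No gene of the costimulatory, T cell receptor signalling, cytokine receptor, survival, killer cell lectin-like receptor and cell-cycle lists was called, of 12, 18, 14, 12, 5 and 13 tested. Klf2 and Ccr7 were called lower among the naive and memory genes, and of 15 immediate-early genes Egr1 was higher and Btg2 and Fosb lower.

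Several of the largest differences to the p38i library lay mostly in 1 cell. The granzymes C to G, a family of closely related proteases in a cluster on chromosome 14, had 1737 counts in 14 vehicle cells, and 1681 of them (96.8%) lay in 1 cell with 36865 UMIs. This cell also had 306 counts of Gzmb and no markers of another lineage. Without it the sum was 70.3 CPM in the vehicle library, against 115 CPM in the p38i library without its own highest cell. In all, 137 counts in 10 cells were seen in the p38i library and 35 counts in 1 cell in the p38KO library. Transcripts of Gzmd, Gzme, Gzmf and Gzmg align at 86.4% to 94.8% identity, so counts may be split among these copies with error, while Gzmc aligns to them at 74.0% to 75.5%. Gzmg (chromosome 14, 56156582 to 56159579, minus strand, GRCm38) had all of its 198 counts in this cell.

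Markers of other cells moved with the p38i library. The 8 granulocyte markers summed to 3209 CPM in the vehicle cells and 7910 CPM in the p38i cells, led by S100a9, and S100a8, S100a9 and Retnlg were called higher and Il1b lower. None of the 8 was at 0 in either library, Csf3r was at 34.8 and 38.6 CPM, and in checkpoint-negative cells the same sum was 3879 and 8044 CPM. The 10 monocyte and macrophage markers summed to 156 and 443 CPM, with 1 and 2 of them at 0, and Apoe and Lyz2 were called higher, Lyz2 with 86.3% of its counts in 1 cell. The 6 natural killer cell markers summed to 236 and 429 CPM, with Tyrobp called higher. With the 9 and 7 cells that had markers of another lineage left out, the granulocyte sums were 374 and 726 CPM and the macrophage sums 91.4 and 105 CPM. Then 125 genes were higher and 102 lower, 88 and 82 of them among those called before. S100a8 and S100a9 turned direction among the cells chosen after thinning. The part of these markers in the other differences was not tested. Of the 10 genes that were highest in the p38i library by size (Lcn2, Retnlg, Mt1, Wfdc21, Lyz2, Cd81, Wfdc17, Apoe, Atp6v1b2 and Tyrobp), 7 had at least 50% of their counts in 1 cell, and so did 6 of the 10 lowest (Gzmg, Gzmc, Hspa1b, Gzme, Gzmf, Dapl1, Ifit1, Rsad2, Hist1h1c and Rnf213). Without each gene's highest cell, 9 of the 10 highest and 6 of the 10 lowest were still called. Among the cells chosen after thinning, 2 of the 10 highest and 3 of the 10 lowest were. Among all called genes, 15 of 142 and 13 of 120 had at least 50% of their counts in 1 cell.

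The same comparison for p38KO set gated cells from tumors of the Mapk14-inactivated clone against those of vehicle tumors. The vehicle library was again the control. Of 5439 genes, 234 were called higher (4.3%) and 180 lower (3.31%) in the p38KO library, with a median log2 ratio of 0.06. Simulated data for p38KO had 2.08% of 5238 unchanged genes called in error, so part of these calls may be false as well. The p38KO side rests on 22 cells. Among the cells chosen after thinning, 34 and 4, 16 of the 234 and 34 of the 180 were still called. In 68 of the 234 higher genes at least 50% of the counts lay in 1 cell, against 15 of the 180 lower genes.

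Itgae (chromosome 11, 73090583 to 73147446, plus strand, GRCm38), the integrin chain by which resident T cells hold to epithelium, was the gene with the largest difference upward. It had no count in 109 vehicle cells, 10 counts in 4 of 100 p38i cells and 59 counts in 13 of 22 p38KO cells, at 0, 15.4 and 378 (95% interval 288 to 487) CPM. The p38KO level was at least 105-fold higher than vehicle, against a floor of 3 counts, and its highest cell held 20.3% of the counts. Thinned to 1500 UMIs, 0%, 2% and 27.3% of the cells had the transcript, against 0%, 0.0808% and 0.385% of granulocytes. Checkpoint-negative CD8 T cells were at 15.6, 28.7 and 123 CPM, again highest in the p38KO library. Pmepa1 (chromosome 2, 173224458 to 173276533, minus strand), a feedback inhibitor and target of TGF-β signalling, had 47 counts in 27 vehicle cells, 83 in 40 p38i cells and 111 in 20 p38KO cells. Its levels were 56.4, 128 and 711 CPM, and the log2 ratio of p38KO to vehicle was 3.66 (3.15 to 4.18). It too was highest in the p38KO library among checkpoint-negative cells, at 156, 191 and 394 CPM. Of 16 trafficking genes, Cxcr3 and Cxcr4 were also called higher, the latter with all 16 counts in 1 cell, and Rgs1 and Rgs16 lower. Rgs16 turned direction among the 4 p38KO cells chosen after thinning, at a log2 ratio of 0.07.

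Prf1 and Klre1 were lower in the p38KO library, and Gzmb and Ifng were not called. Prf1 (chromosome 10, 61297833 to 61304680, plus strand) had 468 counts in 84 vehicle cells, 401 in 70 p38i cells and 17 in 9 p38KO cells. The log2 ratio of p38KO to vehicle was -2.37 (-3.16 to -1.67), while that of p38i was 0.14 (-0.06 to 0.34) and not called. Among the cells chosen after thinning, however, Prf1 and Gzmb were both called lower in the p38i library than in the vehicle library. Klre1, a killer cell lectin-like receptor, had 240 counts in 77 cells, 154 in 62 cells and 3 in 2 cells, a log2 ratio of -3.91 (-6.19 to -2.34) for p38KO. At 19.2 CPM the gated p38KO cells were level with their checkpoint-negative neighbours at 23.5 CPM. Klrk1 (NKG2D) was the other of 5 such receptors called lower. Serpinb6b had 92, 62 and 2 counts. Of 16 cytotoxic genes 8 were lower (Prf1, Serpinb6b, Gzmk and Gzmc to Gzmg). For Gzmc to Gzmg, 95.7% to 100% of the vehicle counts lay in the 1 vehicle cell described above. Gzma was higher, with 175 counts in 3 cells and 71.4% of them in 1. Gzmb was not called, at 1127, 596 and 698 CPM.

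Costimulatory receptors were lower in 4 of 12 and higher in none, with a median log2 ratio of -0.55. Tnfrsf9 had 418 counts in 88 vehicle cells, 337 in 81 p38i cells and 29 in 9 p38KO cells, a log2 ratio of -1.43 (-2.03 to -0.89) for p38KO. Cd28, the main costimulatory receptor, had 174, 81 and 7 counts, a log2 ratio of -2.22 (-3.55 to -1.15). Tnfrsf4 and Tnfrsf18 (GITR) had log2 ratios of -1.25 and -1.21. Of 15 transcription factors Nr4a2, Bhlhe40 and Prdm1 were lower and none higher. Nr4a2, which receptor signals induce and which promotes dysfunction, had 90 counts in 38 vehicle cells, 48 in 24 p38i cells and 1 count in the p38KO cells, a log2 ratio of -4.08 (-9.39 to -1.56). Tox was at 76.9 (39.7 to 134) CPM in the p38KO cells, with a log2 ratio of -0.83 (-1.83 to 0.03) that was not called. Of 9 inhibitory receptors Ctla4 was lower (128 and 6 counts) and Cd244a higher (56 and 23 counts, log2 ratio 1.13, interval 0.36 to 1.86). For cells chosen after thinning, 4 in the p38KO library, Ctla4 and Nr4a2 were no longer called.

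Slc17a6 (chromosome 7, 51622006 to 51671119, plus strand), the vesicular glutamate transporter VGLUT2 of neurons, followed the gate and the library. It had 155 counts in 43 vehicle cells, 106 counts in 30 p38i cells and none in the p38KO cells, at least 9.68-fold lower than vehicle against a floor of 3 counts. Checkpoint-negative cells held 4.46, 2.61 and 0 CPM, and CD8 T cells with part of the gate 75.2, 110 and 0 CPM. Among CD8 T cells the transcript was thus seen in the vehicle and p38i libraries, mostly in cells with all or part of the gate.

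**Figure D4:**
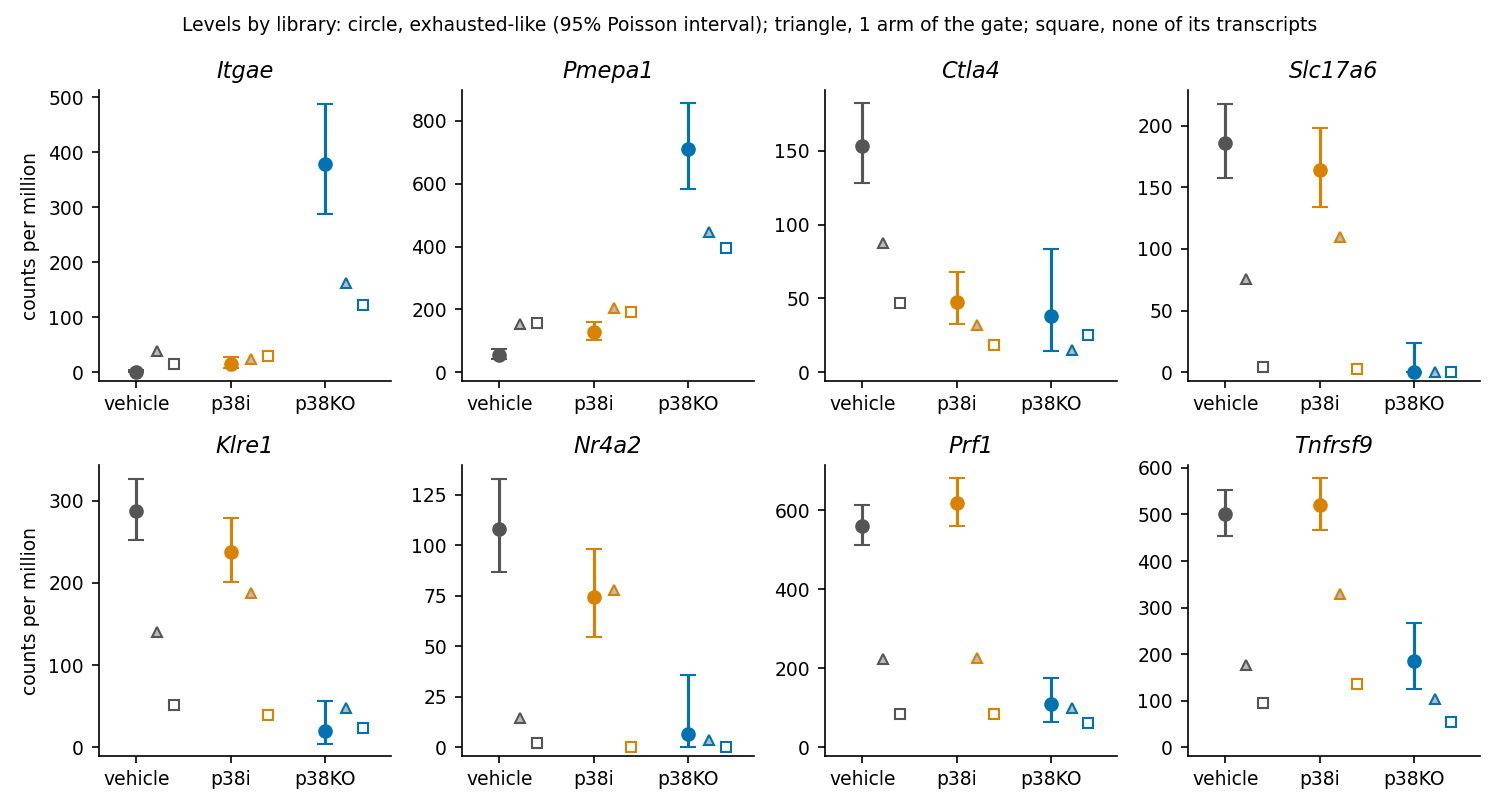
Levels of 8 genes by library (CPM; circles, Pdcd1+ CD8 T cells with exact Poisson 95% intervals; triangles, CD8 T cells with part of the gate; squares, CD8 T cells with none of its transcripts). Itgae and Pmepa1 reach 378 and 711 CPM in the gated p38KO cells. Among the gated cells, Slc17a6, Klre1, Nr4a2, Prf1 and Tnfrsf9 are lowest in the p38KO library, and Ctla4 is at 154 CPM in the vehicle library against 47.9 and 38.4 in the others.

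Other lists moved in parts. Of 19 interferon-response genes, Ifi27l2a, Ly6a and Irf7 were higher and Isg15 and Rsad2 lower. Ifi27l2a had 348 counts in 62 vehicle cells and 228 counts in 18 p38KO cells, at 418 and 1460 CPM and a log2 ratio of 1.81 (1.56 to 2.05), and the checkpoint-negative cells were at 528 and 953 CPM. Ly6a was higher by 1.05 but turned direction among the cells chosen after thinning, where the p38KO cells had no count of it. Of 14 p38 pathway genes Mapkapk3, a kinase that p38 activates, was higher and Zfp36, Zfp36l1, Zfp36l2 and Dusp1 lower, the last again not without the highest cells. Mapk14 had 38 and 4 counts, a log2 ratio of -0.83 (-2.78 to 0.64). Bcl2 was among the survival genes that were lower, and also lower were Bach2, Ccr7 and Il7r of 8 naive and memory genes, Sh2d2a, Sh2d1a, Cblb and Trbc1 of 18 receptor signalling genes, Atf3, Fos and Klf6 of 14 immediate-early genes, and both Hspa1a and Hspa1b of 10 chaperones. Il2ra and Il12rb2 were lower and Ifnar2 higher of 14 cytokine receptors, Csf1, Spp1 and Csf2 were lower and Ccl1 higher of 13 cytokines, with all 92 counts of Ccl1 in 1 cell, and Slc2a1 was higher of 18 glycolysis and hypoxia genes. No cell-cycle gene of 11 tested was called.

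Several myeloid and antigen-presentation markers were higher in the p38KO library, with most counts of each in its own highest cell. The 10 monocyte and macrophage markers summed to 156 CPM in the vehicle cells and 1953 CPM in the p38KO cells, with 1 marker at 0 in the vehicle cells, none at 0 in the p38KO cells and Apoe the most abundant, and 5 of 6 tested were higher. The 8 dendritic cell markers summed to 70.8 and 1998 CPM, all 3 tested (Cd74, H2-Aa and H2-Ab1) were higher, and the other 5 were at 0 in both libraries. Of the 227 counts of Cd74 in p38KO cells, 96.0% lay in 1 cell. The highest cell of C1qa held 90.4% of its counts and that of Apoe 87.8%. Whether these were the same cell was not tested. Without the highest cell of each gene the sums were 316 and 184 CPM. Of the 10 genes with the largest rise in size (Itgae, Cd74, Gatm, C1qb, Apoe, C1qa, H2-Aa, Pmepa1, H2-Ab1 and Gzma), 8 had at least 50% of their counts in 1 cell, Itgae and Pmepa1 being the others. Of the 10 lowest (Gzmg, Gzmd, Gzme, Slc17a6, Hspa1b, Gadd45g, Ccr7, Nr4a2, Klre1 and Stfa2l1) this held for 3. Without each gene's highest cell, 5 of the 10 highest, 7 of the 10 lowest, 121 of the 234 higher and 117 of the 180 lower genes were still called. With cells holding markers of another lineage left out, 5 of them in the p38KO library, 105 of the 234 higher and 89 of the 180 lower genes were still called. Granulocyte markers went the other way, at 3209 and 948 CPM, with S100a8 and S100a9 lower, against 3879 and 4545 CPM in checkpoint-negative cells. Natural killer cell markers summed to 236 and 980 CPM, with Fcer1g and Tyrobp higher and Klri2 lower, and both higher genes depended on such cells or on 1 cell. The part of these cells in the other differences was not tested. Itgae, Pmepa1, Prf1, Klre1, Slc17a6 and Tnfrsf9 kept their direction and call without such cells and without the highest cell of each gene. Among the cells chosen after thinning, 2 of the 10 highest and 2 of the 10 lowest genes were still called.

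**Figure D5:**
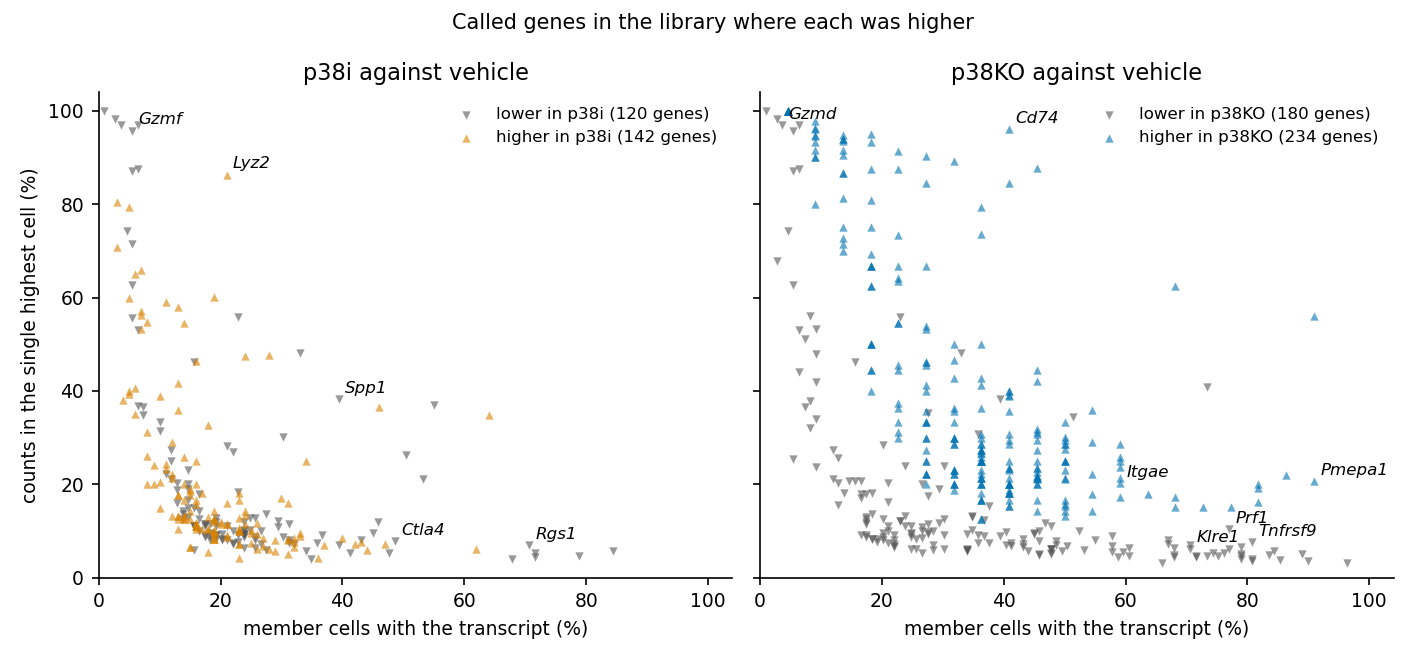
Each point is a called gene, with the share of gated cells that had its transcript (%, horizontal axis) and the share of its counts in the highest cell (%, vertical axis), in the library where it was higher; p38i against vehicle on the left, p38KO against vehicle on the right. Itgae, Pmepa1, Prf1, Klre1, Tnfrsf9, Ctla4 and Rgs1 lie low and to the right, in many cells, while Gzmf and Gzmd, Lyz2 in the p38i panel and Cd74 in the p38KO panel have 86.3% to 96.9% of their counts in 1 cell.

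Both comparisons used the vehicle library, so a value that is high or low there by chance moves both. Itgae was called in the p38KO comparison and had 10 counts, under the limit of 20, in the p38i comparison. Prf1, Klre1, Tnfrsf9 and Slc17a6 had log2 ratios of 0.14, -0.28, 0.05 and -0.18 in the p38i comparison and were lower in the p38KO comparison. For Prf1 this depended on the gate, as it was called lower in the p38i comparison too among the cells chosen after thinning. Whether p38i and p38KO differed was not tested.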

How the data were processed

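Gene by cell counts of 3 libraries (vehicle, p38i and p38KO) were used as deposited. The authors made these counts, which are whole numbers of UMIs per gene and barcode with no normalization, with Cell Ranger 6.0.0 (file headers) on mm10; the submitters' notes also list R 4.2.1 and Seurat 5. Of 16143 barcodes, 12472 passed limits of 1500 UMIs, 300 genes and 20% mitochondrial counts, from libraries of 21675352, 25996832 and 25997636 UMIs. No doublet caller was run, and cells with markers of another lineage were left out as an alternative. The gated cells and the gene lists were chosen with earlier results of these data known.

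Counts were summed over the cells of each library and state. CPM are counts per 1e6 of that sum, with exact Poisson 95% intervals. Ratios of 2 libraries have exact conditional binomial 95% intervals, and shares exact Clopper-Pearson 95% intervals. All cover counting error only. A library with no counts was given a floor of 3 counts. Folds given as at least a value use that floor and do not cover the counting error of the group with counts. States were tested with edgeR 4.0.16 (filterByExpr, TMM, robust quasi-likelihood fit, Benjamini-Hochberg adjustment at 0.05), with the library as a block because both states came from the same pooled mice. DESeq2 1.42.0, no block, other filters and scalings, thinning to 1500 UMIs, a stricter gate and each library left out were the alternatives. Leaving out shared barcodes and leaving out each gene's highest cell were added after seeing the data. Scripts were tested on simulated data. R 4.3.3, Python 3.11.15, NumPy 2.4.6, SciPy 1.17.1 and pandas 2.3.3 were used. Genes named were those of the lists, called or most abundant ones first, and per comparison and direction the 10 largest called changes with at least 50 counts, leaving out gate, mitochondrial, ribosomal, unnamed and receptor variable genes. Slc17a6 levels by state and the uncalled genes given for contrast were chosen after their values were seen. Positions are those of GENCODE M21 on GRCm38, matched by gene identifier for 371 of 371 genes. Transcript identities of the granzymes come from the same annotation. Values of some genes are not reported here.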

Additional observations from a re-analysis of the deposited data

Results flagged for a closer look

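For 19 of the 371 genes with values in the tables of named genes, the gated cells lay above the checkpoint-negative CD8 T cells in at least 1 library and below them in another, with the 95% counting interval of the ratio leaving out 0 in both. Klre1, at -0.29 (interval -2.73 to 1.55) in the p38KO library, is not among them. The values are log2 ratios of gated to checkpoint-negative cells within a library, with 0 counts set to the floor of 3 counts. The difference between libraries was not tested.

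Among residency and effector genes, Itgae was at 1.63 in the p38KO library and -2.12 in the vehicle library, and Pmepa1 at 0.85 in the p38KO library, -1.47 in the vehicle library and -0.57 in the p38i library. Gzma was at 1.02 in the p38KO library and -1.53 in the p38i library. Cxcr4 was at 2.93 in the p38KO library, -1.79 in the vehicle library and -2.44 in the p38i library. Tcrg-C1 was at 3.50 in the vehicle library and -2.11 in the p38i library.

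Among interferon-response and stress genes, Ifit1 was at 0.78 in the vehicle library and -1.04 in the p38KO library, Rsad2 at 0.93 and -2.68, and Hspa1a at 2.01 and -0.57. Ifi27l2a was at 0.62 in the p38KO library and -0.34 in the vehicle library.

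Among genes of myeloid and presenting cells, Lyz2 was at 3.06 in the p38i library, 2.01 in the p38KO library and -2.33 in the vehicle library, and Apoe at 2.27, 1.55 and -2.71. Fcer1g was at 0.56, 2.43 and -0.97 and Wfdc17 at 0.65, 0.96 and -0.63 in the same order. Cd74 was at 2.91 in the p38KO library and -2.27 in the vehicle library, H2-Ab1 at 1.83 and -1.07, and Tyrobp at 1.39 and -1.88. H2-Aa was at 1.78 in the p38KO library, -1.89 in the vehicle library and -2.34 in the p38i library. Il1b was at 0.62 in the vehicle library, 1.23 in the p38KO library and -1.27 in the p38i library, and Atp6v1b2 at 0.99 in the p38i library and -1.06 in the vehicle library.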

How the results depend on the processing

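The cause was not tested for any change given here. The p38KO share stayed lowest under all alternatives run. Shares of CD8 T cells were 14.4%, 16.04% and 2.76% in the vehicle, p38i and p38KO libraries after thinning, and 35.2% and 30.1% in the vehicle and p38i libraries with at least 2 Pdcd1 UMIs. For p38i, cells chosen after thinning gave 143 genes higher and 89 lower, of which 19 and 15 were among the 142 and 120 called with the gate at full depth, a minimum of 50 counts left 50 genes higher and 54 lower, no minimum gave 230 higher, and a log2 ratio of at least 0.5 gave 317 and 226. For p38KO, cells chosen after thinning gave 62 and 81, of which 16 and 34 were among the 234 and 180 called with the gate at full depth, a minimum of 50 counts 75 and 117, no minimum 483 higher, and a log2 ratio of at least 0.5 gave 363 higher.

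Against checkpoint-negative cells, DESeq2 called 67 higher and 59 lower and no filter on low counts 306 higher. All other CD8 T cells as the comparison gave 143 lower. Cells thinned and gated again gave 14 and 6, of which 9 and 4 were among the main calls. The fit with no replicate block gave 171 higher and 152 lower. Leaving out 1 library gave 88 to 225 higher and 66 to 223 lower. Against CD4 T cells of the gate, the fit with no replicate block gave 35 higher and 64 lower and DESeq2 49 and 38. Leaving out 1 library gave 46 to 102 higher and 47 to 87 lower. Cells thinned and gated again gave 10 and 20, of which 8 and 9 were among the main calls.

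Some genes turned direction. Among cells chosen after thinning, p38i log2 ratios were 4.11 for Gzmf, 0.69 for Tnf, -0.34 for Ccl3, -1.35 for Ccl1, 0.62 for Spp1, -1.67 for S100a8 and -2.06 for S100a9. Prf1 and Gzmb, not called for p38i with the gate at full depth, were called lower. The p38KO log2 ratios were 0.074 for Rgs16 and 0.030 for Tcrg-C2. Ly6a was at -1.22 or lower for p38KO, with 47 counts in the vehicle cells and 0 in the p38KO cells. Without mixed-lineage cells, Lyz2 was at -0.12 for p38i and Fcer1g at -1.86 for p38KO. Ccl1 was then at -1.78 or lower for p38KO, with 69 counts in the vehicle cells and 0 in the p38KO cells. Without each gene's highest cell, Lyz2 was at -0.12 and Gzmd at 1.68 for p38i and Tyrobp at -1.48 for p38KO. With at least 2 Pdcd1 UMIs, Ccl1 was at -2.003 or lower for p38KO, with 66 counts in the vehicle cells and 0 in the p38KO cells. Thinned, gated again and set against checkpoint-negative cells, Id2 was at -0.13, Gzmb at -0.75, Zap70 at -0.025, Il18rap at -0.14, Ldha at -0.035, Mif at -0.014 and Bcl2l11 at -0.27.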

Other observations

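Variable segments of the T cell receptor are read only in part by these libraries, and their genes were singled out after their values were seen. Trav3-3 was seen in 19 of 109 gated vehicle cells (17.4%, exact Clopper-Pearson interval 10.8 to 25.9), in 2 of 68 vehicle CD8 T cells with part of the gate and in 2 of 76 checkpoint-negative ones. In the gated cells of the p38i and p38KO libraries it was seen in 7 of 100 and 0 of 22. Trbv2 was seen in 14 of 109 gated vehicle cells (12.8%, interval 7.20 to 20.6), in 0 of 100 in the p38i library and in 0 of 22 in the p38KO library, and 1 cell had both segments.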
